A study of Mus musculus with 6 samples.

Results

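Complex I (NADH:ubiquinone oxidoreductase) is the entry point for electrons from NADH into the mitochondrial respiratory chain, and its nuclear subunit genes were followed here in mouse liver tumors with and without Top1mt, the topoisomerase of the mitochondrial genome. The genes were taken by symbol: every row that begins with Nduf, one of the letters a, b, c, s or v, and a digit, without pseudogenes. This gave 37 genes of 30236 rows. Of these, 35 encode complex I subunits. The other two match by name only: Ndufa4, now assigned to complex IV, and its paralog Ndufa4l2. The acyl carrier subunit gene Ndufab1 is not caught by the rule, and Ndufb1-ps and the mitochondrially encoded ND genes were not analysed here.

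RNA was sequenced from 3 liver tumors of WT (Top1mt+/+) mice and 3 of Top1mt-KO (Top1mt-/-) mice. All were male C57BL/6 littermates from heterozygous breeding, and the knockout was present in the whole animal. Both genotypes received the carcinogen diethylnitrosamine on day 14 after birth, then the liver toxin carbon tetrachloride for 14 weeks from week 8, and tumors were collected at 22 weeks of age. Values are the authors' normalized log2 expression values per gene symbol. No counts came with them, and library depth is therefore unknown.

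The enzyme is L-shaped. In the peripheral arm, the N module oxidizes NADH and passes electrons along iron-sulfur clusters to the Q module, which reduces ubiquinone. The membrane arm, with a proximal and a distal part, pumps protons. The catalytic core of the peripheral arm is nuclear-encoded, that of the membrane arm is encoded by mitochondrial DNA, and the remaining nuclear products are supernumerary subunits that assemble around both. Liver cells are rich in mitochondria.

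The promoters were searched for letters like 5 motifs: NRF1, ETS, YY1, the CCAAT box and the GC box. The transcription factors NRF1 and YY1 are known regulators of respiratory chain genes. RefSeq promoter windows on GRCm38.p6 (250 bases before to 50 after the start) matched 32 of the 37 genes. Of 5 motifs searched on both strands, the NRF1-like letters (GCGCA, any base, then GCGC) lay in 7 of the 32 (21.9%, against 7.70% of the windows of all tested genes and 4.60% of all windows). AANATGGCG (YY1-like) also lay in 7 (21.9%, against 3.85% and 2.38%). The other three were no more frequent than among tested genes: CCGGAAG (ETS-like) in 12.5% against 13.8%, CCAAT in 31.2% against 36.9% and GGGCGG in 43.8% against 54.1%. Across all windows these shares were 8.86%, 37.4% and 35.7%. A match is a description of letters, not a binding site. The NRF1-like letters occurred upstream of Ndufb4 and Ndufs5, which are among the largest fold changes below, and of Ndufa8 and Ndufa11, whose log2 fold changes were -0.02 and 0.02. The 120 bases before the start are shown for the 5 genes that hold the motif there, chosen after the search, 5′ to 3′ on the gene's strand, with the motif in capitals.
Ndufb4 (chr16:37654369-37654488, minus strand): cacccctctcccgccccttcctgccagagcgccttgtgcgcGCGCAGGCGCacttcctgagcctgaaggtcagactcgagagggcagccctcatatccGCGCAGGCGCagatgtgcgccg
Ndufs5 (chr4:123718187-123718306, minus strand): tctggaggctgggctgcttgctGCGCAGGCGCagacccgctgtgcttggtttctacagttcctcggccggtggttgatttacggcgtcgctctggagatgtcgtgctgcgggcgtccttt
Ndufs6 (chr13:73328483-73328602, minus strand): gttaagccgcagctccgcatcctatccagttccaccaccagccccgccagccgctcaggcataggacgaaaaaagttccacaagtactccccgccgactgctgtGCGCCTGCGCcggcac
Ndufa8 (chr2:36049339-36049458, minus strand): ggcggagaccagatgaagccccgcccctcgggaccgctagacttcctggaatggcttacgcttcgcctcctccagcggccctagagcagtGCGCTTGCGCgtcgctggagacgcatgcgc
Ndufa11 (chr17:56717642-56717761, plus strand): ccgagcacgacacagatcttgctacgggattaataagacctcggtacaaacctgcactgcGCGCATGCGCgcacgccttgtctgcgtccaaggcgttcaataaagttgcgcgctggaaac

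The libraries differed in ways the genotype labels do not give. For Top1mt itself the WT libraries stood at 7.71, 5.99 and 8.01 (log2, in replicate order) and the KO libraries at 5.58, 6.41 and 6.32, so the library labelled WT replicate 2 lay below 2 of the 3 KO libraries, against its label. In KO replicate 1 Gm42418 stood at 22.00 and Lars2 at 20.06, against 11.66 to 15.80 and 8.44 to 12.67 in the other libraries, and WT replicate 3 was the next highest for both. Hepatocyte markers were present in every library, with 7 of 8 listed genes in the table. The directions below rest on the labels. The labels give separate samples, so p-values measure only the spread between these samples.

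No complex I subunit gene passed the test between Top1mt-KO and WT tumors. Of the 37 genes, 27 had a log2 fold change (KO minus WT) above 0, against 47.7% of the 22677 genes tested, and 10 lay below. The median was 0.08, against -0.02 over all tested genes, and 32 of the 37 lay within 0.25 of 0. The change was smaller than its own standard error for 31 genes. By limma, 0 of the 37 passed an adjusted p of 0.05, as did 0 of all genes (0%), and 0 passed an unadjusted p of 0.05, against 4.34% of all genes. The smallest adjusted p among them was 0.999. KO lay above WT without overlap for 2 of the 37 (background 3.95%), Ndufa4l2 and Ndufb2, and below for 0 (background 4.33%). In bulk tumor RNA, fewer cells of a type and less RNA per cell cannot be told apart.

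The 7 nuclear core subunits form the catalytic path of the peripheral arm and had a median log2 fold change of -0.01 (3 higher and 4 lower). Ndufv1, which binds NADH and flavin, had values of 10.72, 10.69 and 10.61 in WT and 10.33, 10.86 and 10.50 in KO, a change of -0.10 (SE 0.16). Ndufs1, the largest iron-sulfur subunit, had 10.38, 10.11 and 10.31 in WT and 10.08, 10.45 and 10.14 in KO, a change of -0.04 (SE 0.15). Both genes had their lowest value in KO replicate 1 and their highest in KO replicate 2.

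Of the 4 short core genes, all but Ndufs7 had their highest value, rather than their lowest, in KO replicate 1. Ndufv2, an iron-sulfur subunit of the N module, had 9.89, 10.21 and 9.67 in WT and 10.23, 9.86 and 9.64 in KO, a change of -0.01 (SE 0.20). Ndufs8, which holds iron-sulfur clusters of the Q module, had 9.51, 9.66 and 9.50 in WT and 9.87, 9.46 and 9.43 in KO, a change of 0.03 (SE 0.16). KO replicate 1 and WT replicate 2 were the highest libraries for both, as they were for Ndufs3, whose log2 fold change was 0.03 (SE 0.18). Ndufs3 aligns over 792 bases at 98.6% identity to the processed pseudogene Gm12251, so its level is uncertain. Ndufs7, which carries the last cluster before ubiquinone, departed from this library order. Its highest library was KO replicate 3, at 9.29, and its change was 0.04 (SE 0.14).

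The supernumerary subunits had a median log2 fold change of 0.11 (22 of 28 higher), and the largest values were all among them or the name-alike pair. By module, the median was 0.03 in the N module (5 of 10 higher), 0.03 in the Q module (5 of 6), 0.08 in the proximal membrane arm (8 of 9) and 0.12 in the distal membrane arm (7 of 10). Without KO replicate 1 all 4 module medians fell below 0, to -0.11, -0.03, -0.06 and -0.12.

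Ndufb4, a distal membrane arm subunit, had the largest change of a complex I subunit and the widest spread. Its values were 7.24, 7.24 and 6.68 in WT and 8.22, 7.31 and 7.20 in KO, a change of 0.52 (SE 0.31), or 0.20 without KO replicate 1. It shares 390 bases at 100% identity with the processed pseudogene Ndufb4c, and only uniquely mapped reads had been kept, so its level is uncertain. Ndufc1, a small proximal membrane arm subunit, had 8.49, 8.97 and 8.53 in WT and 9.54, 8.88 and 8.78 in KO, a change of 0.40 (SE 0.24), or 0.16 without KO replicate 1. WT replicate 2 lay above the other two KO libraries, so the groups overlapped.

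Ndufb2, in the distal membrane arm, was the complex I subunit whose groups did not overlap. It had 7.05, 7.52 and 7.53 in WT and 7.80, 7.89 and 7.55 in KO, a change of 0.38 (SE 0.20) with an unadjusted p of 0.0945 and an adjusted p of 0.999 by limma. The gap between the groups was narrow, since KO replicate 3 lay just above the highest WT library. Ndufs5, in the proximal membrane arm, had 7.80, 7.62 and 7.82 in WT and 8.59, 7.98 and 7.70 in KO, a change of 0.34 (SE 0.24), or 0.10 without KO replicate 1. It aligns over 319 bases at 99.4% identity to the pseudogene BC002163, so it too is uncertain.

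The membrane arm genes Ndufa1 and Ndufb11 were among the 5 with the widest spread over the libraries. Ndufa1, needed for early assembly of the membrane arm, had 9.16, 9.70 and 9.14 in WT and 10.10, 9.37 and 9.17 in KO, a change of 0.21 (SE 0.27). Ndufb11 had 10.07, 10.48 and 10.15 in WT and 10.97, 10.06 and 10.03 in KO, a change of 0.12 (SE 0.26), and it has a pseudogene copy at 96.9% identity. In both, KO replicate 1 and WT replicate 2 stood above the other 4 libraries. Ndufb8, a distal subunit often blotted as a marker of assembled complex I, had 9.31, 9.62 and 9.31 in WT and 9.76, 9.57 and 9.20 in KO, a change of 0.09 (SE 0.18). Copies or overlapping genes at 95% identity or more over 200 bases or more were found for 11 of the 37 genes.

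Ndufa4l2, a paralog of Ndufa4 known to be induced by hypoxia, had the largest change of all 37 and the lowest level. Its values were 4.03, 4.29 and 4.24 in WT and 4.86, 4.97 and 4.51 in KO, a change of 0.59 (SE 0.36), with an adjusted p of 0.999 by limma. Every KO library lay above every WT library, and the change without KO replicate 1 was 0.56. Ndufa4, the highest per kilobase of transcript (mean log2 value less log2 of length, 12.55, against 4.58 for Ndufa4l2), had 11.29, 11.46 and 11.21 in WT and 11.89, 11.53 and 11.21 in KO, a change of 0.22 (SE 0.19). On the same scale the quartiles of the 35 complex I genes were 9.26 and 10.46. Ndufab1, outside the rule, had a change of 0.08 (SE 0.15).

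The members varied together across libraries. A single principal component held 77.6% of their variance around each gene's mean, and the second held 10.6%. The highest of the 6 libraries was KO replicate 1 for 27 of the 37 genes, against 18.8% of all genes tested. KO replicate 1 lay above both other KO libraries for 29 (background 38.9%) and below both for 5 (background 33.1%). WT replicate 2 lay above both other WT libraries for 29 (background 36.1%). The SD within KO exceeded that within WT for 35 genes (background 53.6%), with medians of 0.34 and 0.18, and for 10 without KO replicate 1 (background 39.6%).

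**Figure D1:**
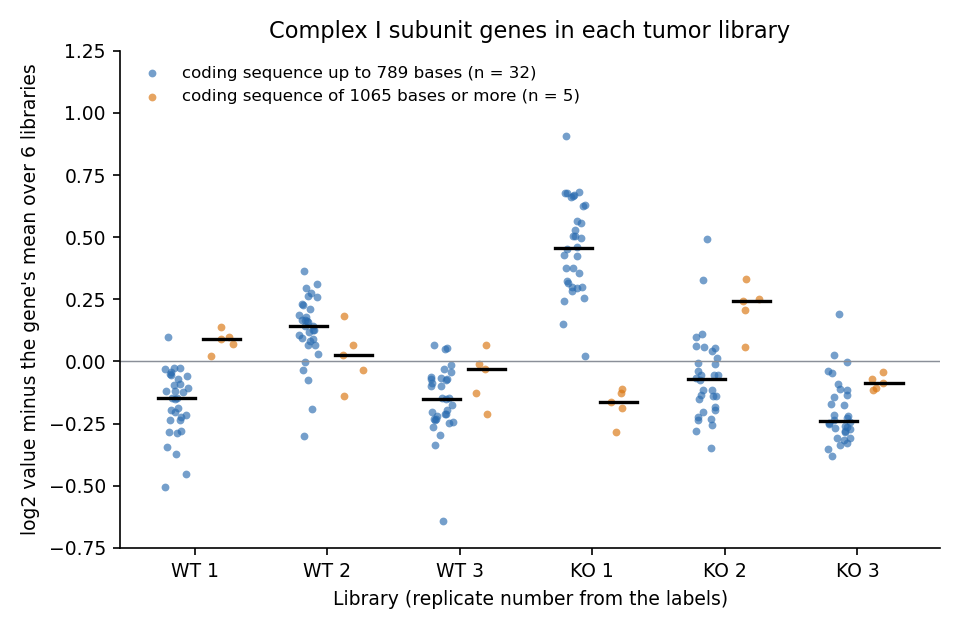
Each point is 1 of the 37 genes in 1 library, as its log2 value minus its own mean over the 6 libraries, with genes split by coding length and black bars at the medians. The 32 shorter genes have a median of 0.46 in KO replicate 1 and 0.14 in WT replicate 2, and the 5 longer genes have -0.16 in KO replicate 1 and 0.24 in KO replicate 2.

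This shared pattern divided the genes by coding length, a split made after the values had been seen. Coding length was taken as the median over a gene's protein-coding transcripts in GENCODE M21. The 32 genes of up to 789 bases were highest in KO replicate 1 in 27 cases (36.0% of other short coding genes). WT replicate 2 led the WT libraries in 28 of the 32 (51.8%). KO replicate 1 exceeded the mean of the other two KO libraries by a median of 0.62, and WT replicate 2 exceeded the other two WT libraries by 0.29. The 5 genes of 1065 bases or more, Ndufs1 and Ndufv1 among them, went the other way. KO replicate 1 lay below both other KO libraries in 5 of 5 (42.8% of other long coding genes), by a median of -0.21. Of the 5, 4 had their highest value in KO replicate 2. Shares are of 2031 other coding genes up to 800 bases and 6052 over 1000, with a mean log2 of at least 7. The longest coding sequence per gene was the first measure of length used, and it was replaced after it had placed Ndufv3, with a short and a long isoform, among the long genes. By the longest sequence there are 6 long genes, of which 1, Ndufv3, was highest in KO replicate 1 and 5 lay below both other KO libraries there.

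The correlation of a gene's deviation in KO replicate 1 with log2 coding length was -0.78 across the 37 genes, -0.72 with the longest coding sequence and -0.64 with transcript length. It was 0.62 in WT replicate 1, -0.17 in WT replicate 2, 0.36 in WT replicate 3, 0.31 in KO replicate 2 and 0.32 in KO replicate 3. The points share libraries and are not independent, and the 6 values of a gene sum to 0. Over 8985 coding genes with a mean log2 value of at least 7, the correlation in KO replicate 1 was -0.17.

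**Figure D2:**
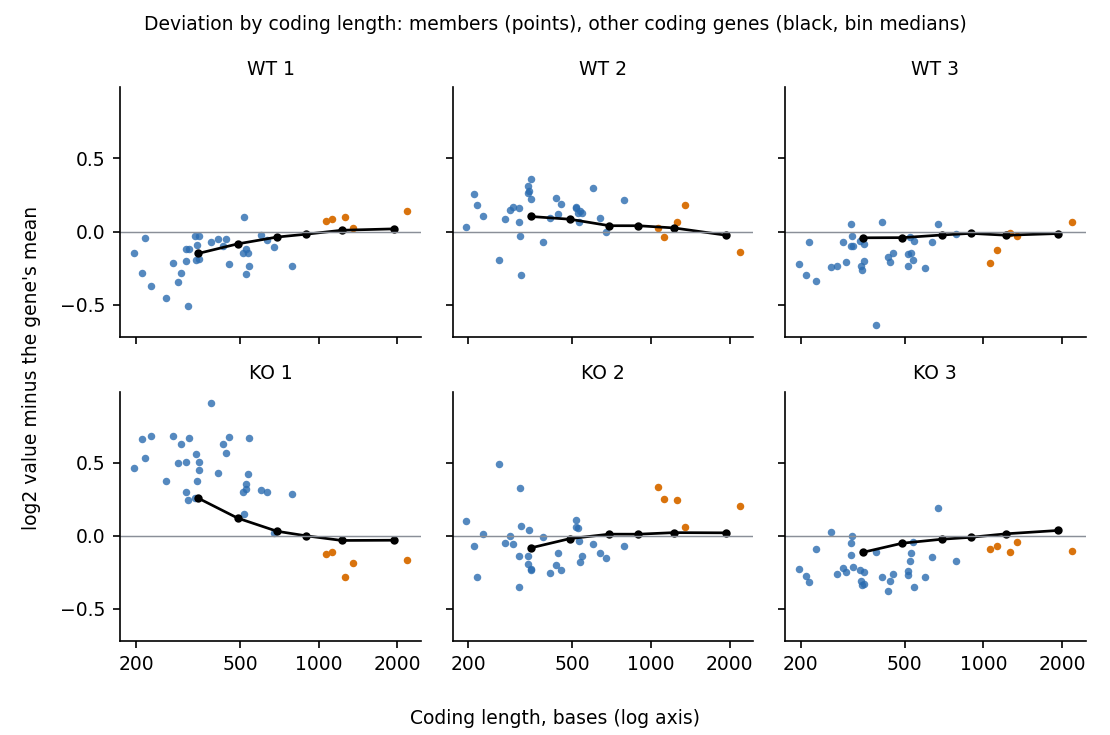
Deviation of each of the 37 genes from its own mean (log2) against coding length in bases (log axis), 1 panel per library, with orange points for coding lengths over 1000 bases and black points for medians of other coding genes in bins from 300 to 2500 bases. In KO replicate 1 the points fall with length (r = -0.78) and the shorter members lie mostly above the medians of other genes.

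Short subunit genes of complexes II to V were likewise highest in KO replicate 1 and next highest in WT replicate 2 by their medians. Among those of up to 800 coding bases, the median deviation in KO replicate 1 was 0.50 for 30 genes of the other complexes and 0.46 for the 32 members, against 0.12 for 2031 other coding genes. KO replicate 1 was the highest library for 27 of those 30 and for 36.0% of the other coding genes. The class is not matched in length within its limit. Other coding genes of up to 300 bases had a median deviation of 0.35 in KO replicate 1, against 0.63 for members. From 300 to 400 bases the medians there were 0.26 and 0.48. With the length trend of all coding genes removed from each library, 26 of the 37 members had their highest value in KO replicate 1. The median deviation there of the 32 shorter genes was 0.30. The share of other coding genes after the same removal is not given here, so how unusual these values are cannot be told.

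**Figure D3:**
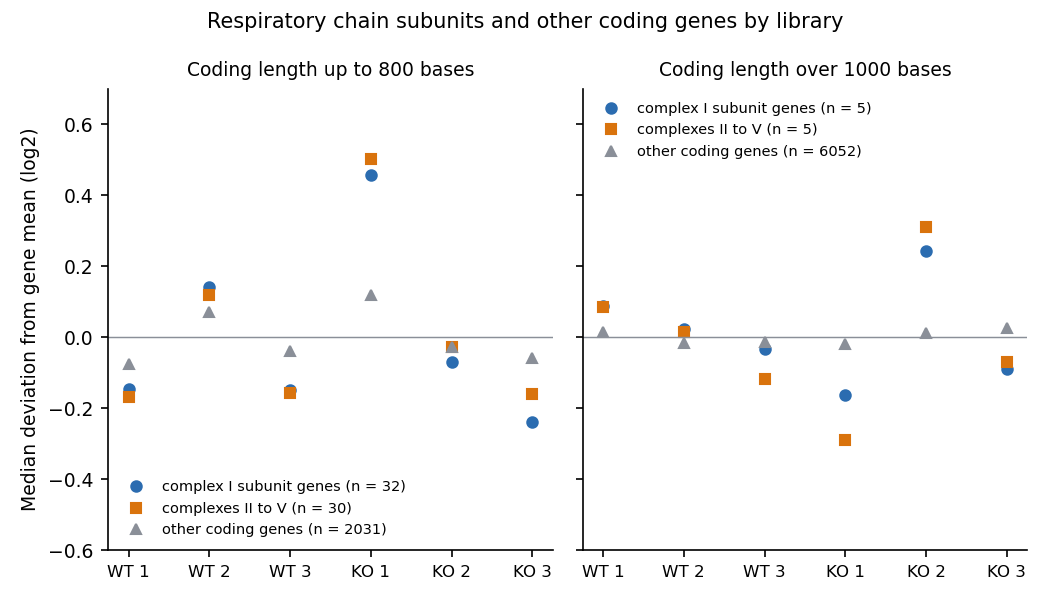
Median deviation from the gene mean (log2) in each library for complex I subunit genes, subunits of complexes II to V and other coding genes, by coding length. The short respiratory chain genes stand at 0.46 and 0.50 in KO replicate 1, above the 0.12 of other short coding genes, and both sets of long ones lie below 0 there.

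Other measures also differed between the libraries, and not all in the order of the shorter members. The summed hepatocyte markers were highest in KO replicate 1 (log2 21.62) and WT replicate 2 (21.52), against 20.83 to 21.32 elsewhere. Alb, at 20.26 to 21.12, made up most of that sum. Apoa1, Apob, Serpina1c and Hnf4a also had these as their highest libraries. Ttr was instead highest in KO replicate 3 (16.78) and Cps1 in WT replicate 1 (15.56, against 15.06 in WT replicate 2). The summed stellate and fibroblast markers, all 6 present, were lowest in KO replicate 1 (11.91, against 12.75 to 14.40). Col1a1, Col1a2 and Col3a1 made up most of that sum and were each lowest in KO replicate 1, as was Pdgfrb. Acta2 was instead lowest in WT replicate 3 (6.63) and Lrat in KO replicate 3 (7.91). Between genotypes, 3 of 5 bile duct markers had a log2 fold change below 0, the lowest being Krt19 at -2.68 (SE 0.69, adjusted p 0.987 by limma), while Sox9 and Spp1 were at 0.15 and 0.05. Krt7 and Epcam were at -2.20 and -1.19, and KO lay below WT without overlap for 2 of the 5, Krt19 and Epcam (background 4.33%). The summed level of the 5 was 11.58 to 12.62 in WT and 11.70 to 12.58 in KO. That sum was mostly Spp1, which stood at 11.32 to 12.56 in WT and 11.62 to 12.54 in KO. Of 5 red cell markers 4 were below 0, with a summed level of 11.88 to 12.81 in WT and 11.25 to 11.81 in KO, and 0 passed an adjusted p of 0.05. The median deviation of 5 macrophage markers was -0.43 in both WT replicate 2 and KO replicate 1, against 0.05 to 0.32 elsewhere. All 5 endothelial markers were above 0 (background 47.7%), 2 of them without overlap (background 3.95%). Of 6 T and B cell markers 4 were above 0 and 2 below. The part of these markers, of Gm42418 and Lars2 and of coding length in the values of the members was not tested.

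Leaving out KO replicate 1 turned the direction of most members. The median log2 fold change became -0.05, with 12 genes above 0 (background 47.9%), and that of the 32 shorter genes became -0.08, with 24 of them lower. KO lay below WT without overlap for 8 genes (background 11.8%) and above for 2 (background 9.75%). At an unadjusted p of 0.05 there was 1 (background 5.97%), Ndufb7, named after its value was seen, at -0.31 with an adjusted p of 0.837 by limma. With WT replicate 2, the library whose Top1mt goes against its label, left out as well, the median was 0.02, with 22 genes higher and 15 lower. With WT replicate 3 left out beside KO replicate 1 in its place, it was -0.09, with 10 higher and 27 lower. The direction most members took changed with the libraries kept.

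Genes that build or control complex I were examined from lists. Of 20 assembly factors 19 were in the table, with 7 higher and 12 lower in KO and a median of -0.06. By limma 1 passed an unadjusted p of 0.05 (background 4.34%) and 0 passed an adjusted p of 0.05. That gene was Atp5sl, the older symbol of Dmac2, which acts in assembly of the distal membrane arm. It had 8.72, 8.58 and 8.58 in WT and 8.32, 8.07 and 8.19 in KO, a change of -0.43 (SE 0.14) with an unadjusted p of 0.0160 and an adjusted p of 0.999 by limma. The groups did not overlap (background 4.33% for KO below WT), and KO replicate 1 was the highest KO library. Among 12 regulators of respiratory genes, Esrra, a nuclear receptor that activates them, had 8.72, 8.85 and 8.77 in WT and 8.14, 8.50 and 8.33 in KO, a change of -0.46 (SE 0.15) with an unadjusted p of 0.0148 and an adjusted p of 0.999 by limma. The other 11, Nrf1, Yy1 and Ppargc1a among them, did not reach an unadjusted p of 0.05 by limma (background 4.34%). Of 9 genes used as measures of mitochondrial mass, 3 were higher and 6 lower, with a median of -0.09. Their median deviation from the gene mean was lowest in KO replicate 1 (-0.13) and highest in WT replicate 2 (0.19). In KO replicate 1 the shorter members stood at 0.46 and the 5 longer members at -0.16. These 9 genes have coding lengths of 816 to 2037 bases, except Tomm20 with 370.5, so most are longer than the shorter members.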

How the data were processed

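RNA of 3 WT and 3 Top1mt-KO liver tumors was analysed, grouped by the sample titles. The values deposited by the authors are log2 expression per gene symbol, from -2.24 to 22.0. The transform is not named and counts and depth are unknown. According to the paper's methods, trimming was by Trimmomatic 0.36 and alignment by BWA, with a genome named Mm 8, and unique alignments were counted by featureCounts before DESeq2. The submitters' processing notes instead name STAR 2.5.1 and GRCm38, and this difference was not resolved. No column of values was left unmapped.

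KO was set against WT by limma 3.58.1 under R 4.3.3 (lmFit and eBayes with a trend, Benjamini-Hochberg over 22677 genes whose mean lay above the lowest 25%). The procedure was tested on simulated data of independent genes, without the variation across libraries that the members share. That test does not show how small a change the fit could detect in these data. Copies were searched with blastn 2.17.0. Named genes are the 7 core subunits, Ndufb8, Ndufa4, Ndufa4l2, Ndufab1, members without overlap, the 5 largest by change and by spread, the highest and lowest per kilobase, and assembly factors without overlap. Others were named after their values were seen, and not every gene of the rule is reported singly. The members, lists, alternatives and the coding length comparison, with its limits of 800 and 1000 bases, level of 7 and choice of length measure, were chosen with earlier results of these data known. Same-numbered libraries were not paired (correlations of deviations -0.12, -0.08 and 0.05).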

Additional observations from a re-analysis of the deposited data

How the results depend on the processing

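In 13 alternatives planned and 4 added after seeing the data, 0 of the 37 members passed an adjusted p of 0.05 by limma, and the count over all genes was 0 except for 4 with no filter on low values and 1 without KO replicate 1. Members at an unadjusted p of 0.05 numbered 1 in limma without trend, and 0 to 1 with each library left out. Members without overlap numbered 13 without WT replicate 2 and KO replicate 1, 13 without WT replicate 3 and KO replicate 1, 1 with libraries centred on their median, 1 with quantile normalization, and 2 to 10 with each library left out. The shares of all genes without overlap were 33.6%, 33.7%, 8.70%, 8.40% and 15.9% to 21.5% in the same order, against 8.28% with all libraries. The median log2 fold change of the members ranged from -0.05 to 0.23 with each library left out, and was -0.09 without WT replicate 3 and KO replicate 1 and 0.02 without WT replicate 2 and KO replicate 1. Assembly factors at an unadjusted p of 0.05 numbered 0 with the coding length, longest coding length or transcript length trend removed, since Atp5sl, the gene otherwise counted, has no length under that symbol and was left out of those fits, and 0 to 1 with each library left out.

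Of 17 named genes 11 changed sign in some alternative, with no adjusted p below 0.620. Without WT replicate 3 and KO replicate 1 log2 fold changes were -0.16 for Ndufa1, -0.0069 for Ndufa4, -0.10 for Ndufab1, -0.23 for Ndufb11, -0.084 for Ndufb8, 0.049 for Ndufs1, -0.11 for Ndufs3 and -0.14 for Ndufs8. Without WT replicate 2 and KO replicate 1 they were -0.063 for Ndufb11, -0.063 for Ndufs8 and 0.020 for Ndufv1. Centred on the library medians, Ndufs1 was at 0.011 and Ndufv2 at 0.042, and Ndufv2 was at 0.0035 with the longest coding length trend removed. With 1 library left out, the ranges were -0.062 to 0.40 for Ndufa1, -0.017 to 0.16 for Ndufab1, -0.19 to 0.28 for Ndufb11, -0.032 to 0.25 for Ndufb8, -0.16 to 0.027 for Ndufs1, -0.11 to 0.14 for Ndufs3, -0.045 to 0.13 for Ndufs7, -0.11 to 0.10 for Ndufs8, -0.25 to 0.012 for Ndufv1 and -0.17 to 0.13 for Ndufv2. The replicate block left the median of the members at 0.08 and 0 genes past the threshold, and the labels give the numbers no shared origin. The cause of these moves was not tested.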
